A study of Mus musculus with 8 samples.

Results

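The genes of the activator protein 1 (AP-1) complex and the immediate-early response were examined in blood monocytes (MCs) of control and diabetic mice. The 10 genes chosen by name were Fos, Fosb, Jun, Junb, Jund, Atf3, Ier2, Dusp1, Egr1 and Zfp36. All 10 were among the 16486 genes measured. Bulk RNA-Seq was available for 8 libraries of flow-sorted MCs. CT mice were untreated wild type C57/BL6 mice, with 2 libraries of Ly6Chigh and 2 of Ly6Clow MCs. T1DM mice were C57/BL6 mice made diabetic at 8 weeks of age with streptozotocin (STZ), a toxin of the insulin-producing beta cells, given intraperitoneally on 5 days in a daily dose of 50 mg/kg. The T2DM model was the db/db mouse, homozygous for a mutation of the leptin receptor, which becomes obese and diabetic. Each diabetic model had 1 Ly6Chigh and 1 Ly6Clow library. Mice of all groups ate normal chow and were killed for blood at 20 to 22 weeks of age. Cells were sorted as CD11b+Ly6G- and then by Ly6C, a surface protein that separates classical (Ly6Chigh) from nonclassical (Ly6Clow) MCs. Each library held pooled RNA of 5 mice. The study describes sequencing in duplicate, so the spread between the CT replicates may be technical, and p-values measure only the spread between these libraries. A NextSeq 500 was used for the CT libraries and a HiSeq 4000 for the diabetic ones, and the effects of sequencer and of diabetes cannot be told apart.

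AP-1 is a dimer of a Jun protein with a Fos, another Jun or an ATF protein, joined through leucine zippers. Its genes belong to the immediate-early genes, which a resting cell transcribes within minutes of a growth factor, cytokine, microbial or stress signal, without making new protein first. MAP kinases switch them on through factors already bound to their promoters, and the response is then shut off by proteins it induces, among them the MAP kinase phosphatase encoded by Dusp1 and the mRNA decay factor encoded by Zfp36. In monocytes the same factors take part in differentiation and in the response to bacterial products. Digestion, sorting and other handling of cells can also raise their mRNAs.

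The values were deposited as normalised log2 expression values without read counts, so the depth behind each value is unknown. They are compared here between libraries for the same gene, not between genes. A difference between groups is given as log2FC, where 1 stands for a 2-fold difference. A gene was called a DEG at an adjusted p-value under 0.01 (limma, Benjamini-Hochberg over all genes) and an absolute log2FC above 1. Every adjusted p-value below comes from limma.

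Between the Ly6C subsets these genes differed in both directions. Over the 8 libraries, with mouse group as covariate, 3 of 10 genes were called. Fos and Atf3 were higher and Jun was lower in Ly6Chigh MCs, while 12.1% of all genes were called in that comparison. By the adjusted p-value alone, a limit added after seeing the data, 8 of 10 passed against 20.3% of all genes. This count was 5 without the variance trend of the fit. It was 7 under quantile normalization, where Zfp36 and Ier2 no longer passed and Fosb did. It was 6 with the replicate number as a block and 6 when any 1 CT library or either diabetic model was left out, where Jund and Ier2 no longer passed (adjusted p up to 0.0279 and 0.0244 by limma). The 6 that were higher in Ly6Chigh MCs were Fos, Junb, Atf3, Ier2, Dusp1 and Zfp36, where 11.4% of all genes passed in that direction. The 2 that were lower were Jun and Jund, against 8.95% of all genes. Fosb and Egr1 did not pass. The median log2FC of the 10 genes was 0.75, beside -0.08 for all genes. In bulk samples a lower value can come from fewer cells of a type or from less RNA per cell, and these cannot be told apart.

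**Figure D1:**
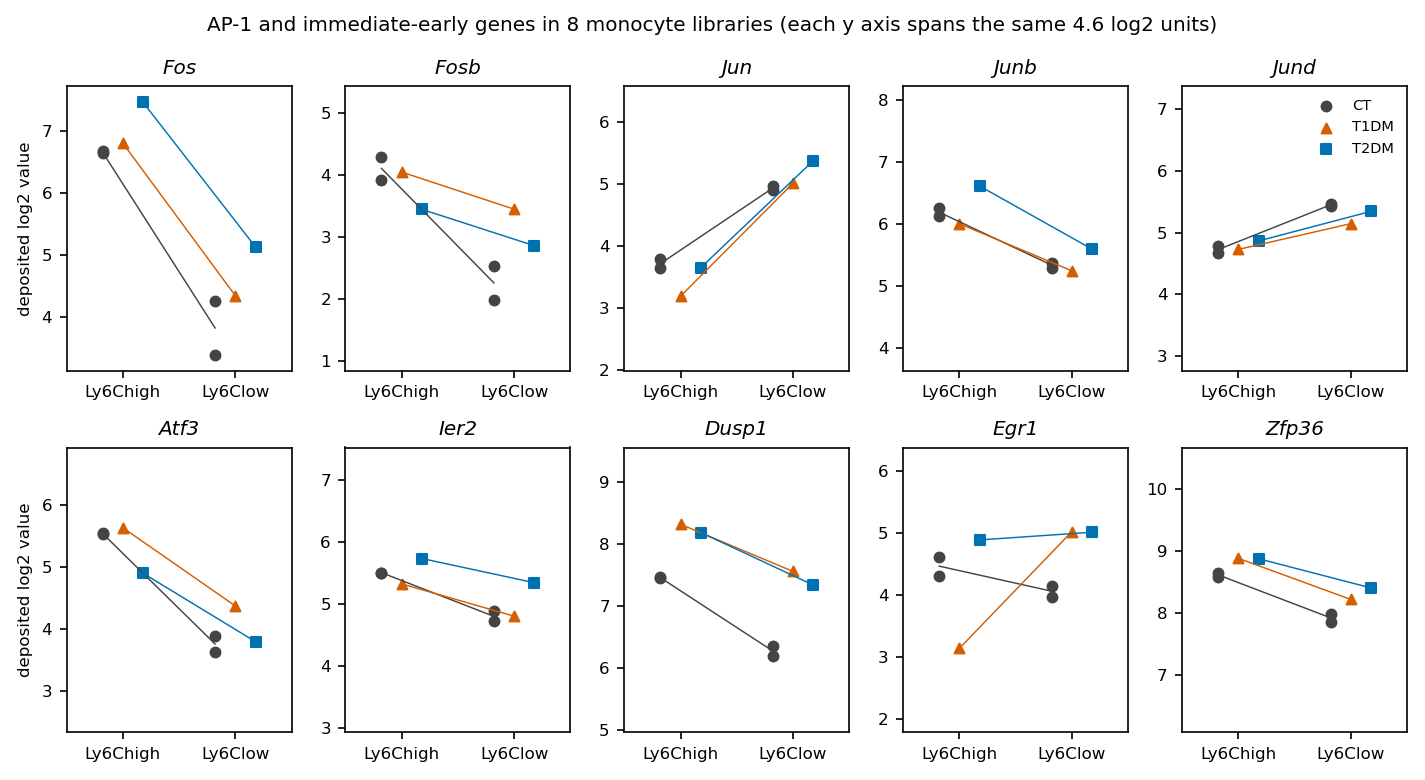
Deposited log2 value (y axis) of each of the 10 genes in Ly6Chigh and Ly6Clow MCs (x axis). Circles are CT, triangles T1DM and squares T2DM libraries, and lines join the subset means of a mouse group. The lines fall from Ly6Chigh to Ly6Clow in every mouse group for Fos, Fosb, Junb, Atf3, Ier2, Dusp1 and Zfp36, and rise for Jun and Jund. For Egr1 the line falls in CT and rises in T1DM, where Ly6Chigh minus Ly6Clow was -1.88, and it is nearly level in T2DM (-0.12).

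The promoters of Fos, Jun and Dusp1 are shown because these 3 genes carry the main contrasts: Fos with the largest log2FC between the subsets, Jun with the opposite direction, and Dusp1 with the largest difference of the diabetic from the CT mean among the 10. The sequences are those of RefSeq on mouse assembly GRCm38.p6, 5′ to 3′ on the strand of the gene. They end before the RefSeq start, or before an annotated exon that they would enter. The Dusp1 window lies inside the annotated span of the gene, chr17:26505590-26562128, which holds 6 transcripts, so other annotated exons can lie upstream of it. Capitals mark matches, on the strand shown, to the cAMP response element TGACGTCA, its core TGACG, the related element TGACATCA and the TATA box TATAAA.
Fos, chr12:85473740-85473889, plus strand: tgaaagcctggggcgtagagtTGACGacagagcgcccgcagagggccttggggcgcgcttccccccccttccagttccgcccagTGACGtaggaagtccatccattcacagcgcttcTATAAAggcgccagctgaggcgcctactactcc
Jun, chr4:95052223-95052372, minus strand: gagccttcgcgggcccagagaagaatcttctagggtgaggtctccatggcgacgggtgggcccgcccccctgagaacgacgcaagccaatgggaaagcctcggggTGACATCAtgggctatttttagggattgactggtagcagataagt
Dusp1, chr17:26508520-26508622, minus strand: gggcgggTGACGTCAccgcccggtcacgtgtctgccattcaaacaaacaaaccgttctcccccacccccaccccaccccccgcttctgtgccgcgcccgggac

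RefSeq promoters, running from 250 bases before to 50 bases after the start, were found for 8 of the 10 genes and searched on both strands. The whole cAMP response element, which binds CREB and ATF dimers, matched in Dusp1 at -143 to -136, counted from the start of transcription, and 1.79% of 32851 promoters held it. TGACATCA matched in Jun at -45 to -38, and 3.62% of promoters held it. Fos had the core TGACG at -129 and at -66, and a TATA box at -33, which 13.6% of promoters held. The core is part of the whole element, so these matches overlap in Dusp1. It was also found in Fosb, Junb and Atf3, and 20.8% of all promoters held it. Zfp36 had a CArG box, the site of serum response factor, at -58 to -49, and 1.63% of promoters held one. The AP-1 site TGANTCA matched in 0 of the 8 windows and in 7.81% of all promoters. TGACATCA and the core were added to the search after the sequences had been seen. Such matches describe the letters and say nothing about binding in these cells.

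Fos encodes the main inducible partner of Jun proteins and lies at chr12:85473890-85477273 (GRCm38, plus strand). Its log2 values in Ly6Chigh MCs were 6.68 and 6.64 for CT, 6.80 for T1DM and 7.46 for T2DM. In Ly6Clow MCs they were 4.25 and 3.39 for CT, 4.34 for T1DM and 5.13 for T2DM. All 4 Ly6Chigh libraries lay above all 4 Ly6Clow libraries, with a gap of 1.51 between the nearest. The pooled log2FC was 2.62 (SE 0.19, adjusted p = 2.11e-05 by limma), a 6.14-fold difference. In CT mice alone it was 2.84 (SE 0.33), and there the adjusted p of 0.0183 did not pass. The CT Ly6Clow replicates differed by 0.86, the widest replicate gap of the 10 genes, whereas the CT Ly6Chigh replicates differed by 0.04.

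Fosb, which encodes another Fos protein, had log2 values of 4.29 and 3.93 for CT, 4.05 for T1DM and 3.45 for T2DM Ly6Chigh MCs. In Ly6Clow MCs its values were 1.99 and 2.53 for CT, 3.45 for T1DM and 2.86 for T2DM. The T1DM Ly6Clow library reached the T2DM Ly6Chigh library, so the subsets overlapped. The pooled log2FC of 1.22 (SE 0.30) had an adjusted p of 0.0133 by limma and was not called. It was called when genes with a mean log2 value under 1 were left out (adjusted p = 0.00896), under quantile normalization and when each library was centred on its median.

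The Jun genes split. Jun encodes the partner with which Fos binds DNA most strongly, and its single exon lies at chr4:95049034-95052222 (minus strand). Its log2 values were 3.65 and 3.79 for CT, 3.19 for T1DM and 3.66 for T2DM Ly6Chigh MCs. In Ly6Clow MCs they were 4.91 and 4.97 for CT, 5.02 for T1DM and 5.38 for T2DM. All Ly6Chigh libraries lay below all Ly6Clow libraries, the reverse of Fos. The pooled log2FC was -1.50 (SE 0.17, adjusted p = 0.000217), 2.82-fold lower in Ly6Chigh MCs. The antisense gene Junos shares 6.39% of the 31-base sequences of Jun, and strand was not stated for the counting.

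Junb encodes a Jun protein with weaker activity at AP-1 sites. Its log2 values were 6.26 and 6.12 for CT, 6.00 for T1DM and 6.61 for T2DM Ly6Chigh MCs, all above its Ly6Clow values of 5.38, 5.30, 5.24 and 5.59 in the same order. The pooled log2FC was 0.87 (SE 0.11, adjusted p = 0.000343), which passed the p-value limit but not the fold limit. Jund, the Jun gene known for steady expression, went the other way. Its log2 values were 4.78 and 4.67 for CT, 4.73 for T1DM and 4.86 for T2DM Ly6Chigh MCs, all below the Ly6Clow values of 5.43, 5.46, 5.14 and 5.34. Its pooled log2FC was -0.58 (SE 0.13, adjusted p = 0.00708). Jund shares 50.1% of its 31-base sequences with the antisense gene Gm11175, which was not analysed here, so its values are uncertain. Junb shares 6.51% with Prdx2 on the opposite strand.

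Atf3 encodes a stress-induced ATF protein that pairs with Jun and represses inflammatory genes in macrophages. It lies at chr1:191170296-191218039 (minus strand). The log2 values were 5.56 and 5.54 for CT, 5.64 for T1DM and 4.90 for T2DM Ly6Chigh MCs. They were 3.63 and 3.89 for CT, 4.38 for T1DM and 3.80 for T2DM Ly6Clow MCs. The subsets did not overlap, and T2DM Ly6Chigh was the lowest of its subset. The pooled log2FC was 1.48 (SE 0.17, adjusted p = 0.000231), a 2.80-fold difference.

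Dusp1, Zfp36 and Ier2 encode no AP-1 subunits. Dusp1 inactivates p38 and JNK by removing phosphate, and its product is a brake on inflammatory signalling. The gene lies at chr17:26505590-26562128 (minus strand). Its log2 values were 7.45 and 7.47 for CT, 8.32 for T1DM and 8.19 for T2DM Ly6Chigh MCs. In Ly6Clow MCs they were 6.20 and 6.35 for CT, 7.56 for T1DM and 7.34 for T2DM. Ly6Chigh was the higher subset in each mouse group, but the T1DM Ly6Clow library exceeded both CT Ly6Chigh libraries, so the 4 and 4 libraries overlapped. Pooled over the 8 libraries, the log2FC was 0.99 (SE 0.10, adjusted p = 0.000141), just under the fold limit. Dusp1 was called without the T1DM libraries, without the T2DM libraries and when each library was centred on its median.

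Zfp36 encodes tristetraprolin, which binds AU-rich elements and speeds the decay of cytokine mRNAs. The log2 values were 8.65 and 8.58 for CT, 8.88 for T1DM and 8.88 for T2DM Ly6Chigh MCs, all above the Ly6Clow values of 7.98, 7.86, 8.22 and 8.41. This gave a pooled log2FC of 0.63 (SE 0.08, adjusted p = 0.000389). Zfp36 shares 6.57% of its 31-base sequences with other genes. Ier2 encodes an immediate-early nuclear protein. Its values were 5.51 and 5.51 for CT, 5.33 for T1DM and 5.74 for T2DM Ly6Chigh MCs, and 4.73 and 4.89 for CT, 4.81 for T1DM and 5.35 for T2DM Ly6Clow MCs. The T2DM Ly6Clow library just exceeded the T1DM Ly6Chigh library. The pooled log2FC was 0.58 (SE 0.12, adjusted p = 0.00638).

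Egr1 encodes a zinc finger factor switched on by serum response factor and MAP kinases. Its log2 values were 4.62 and 4.32 for CT, 3.14 for T1DM and 4.89 for T2DM Ly6Chigh MCs, and 3.98 and 4.15 for CT, 5.03 for T1DM and 5.02 for T2DM Ly6Clow MCs. The T1DM Ly6Chigh library was the lowest of the 8 and the T1DM Ly6Clow library the highest. Among these 10 genes, Egr1 was the only one whose Ly6Chigh to Ly6Clow difference changed sign between the mouse groups. The pooled log2FC of -0.30 (SE 0.35, adjusted p = 0.554) did not pass, and it was 0.23 without the T1DM libraries.

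Altogether 6 of 10 genes, Fos, Jun, Junb, Jund, Atf3 and Zfp36, had 4 Ly6Chigh and 4 Ly6Clow libraries that did not overlap, and 32.8% of all genes had the same separation. The other 4 were Fosb, Dusp1, Ier2 and Egr1. Scaling between the libraries bears on these values, since the median log2FC of all genes moved from -0.08 to 0.03 by centring each library and to 0.04 by quantile normalization. None of the 10 pooled directions turned under either scaling.

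Within CT mice, the only group with replicates on both sides, 1 of 10 genes was called, beside 3.52% of all genes. This was Dusp1, with a log2FC of 1.18 (SE 0.08, adjusted p = 0.0076). The adjusted p of Atf3 (log2FC 1.78) was 0.0101, and those of the others were between 0.0128 for Zfp36 and 0.202 for Egr1. At an unadjusted p under 0.05, 9 of 10 genes passed, Egr1 being the exception, beside 37.7% of all genes. These calls depended on the fit. When genes with a mean log2 value under 1 were left out, Fos, Jun, Atf3 and Dusp1 were called, beside 8.69% of the genes then tested. Without any 1 of the CT libraries (CT Ly6Chigh replicate 1 or 2, CT Ly6Clow replicate 1 or 2), 0 of 10 were called, and likewise 0 of all genes.

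T1DM and T2DM mice had 1 library a subset, so their own differences have no test and no replicate check. In T1DM mice 4 of 10 genes lay past 2-fold between the subsets, beside 27.9% of all genes. Fos (log2 difference 2.46) and Atf3 (1.26) were higher, and Jun (-1.82) and Egr1 (-1.88) lower in the Ly6Chigh library. In T2DM mice 4 of 10 lay past 2-fold, beside 29.1% of all genes. These were Fos (2.33), Atf3 (1.11) and Junb (1.02) with higher values, and Jun (-1.73) with a lower value in the Ly6Chigh library. The size of the difference was larger in CT than in either diabetic model for 7 of 10 genes. These were Fos, Fosb, Jund, Atf3, Ier2, Dusp1 and Zfp36, and for Zfp36 the margin was narrow, with 0.69 in CT and 0.66 in T1DM. The share of all genes with this order was not counted, so it is only a description. For Jun the size was smaller in CT, with -1.22. Fosb had 1.85 in CT and 0.60 and 0.59 in T1DM and T2DM.

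**Figure D2:**
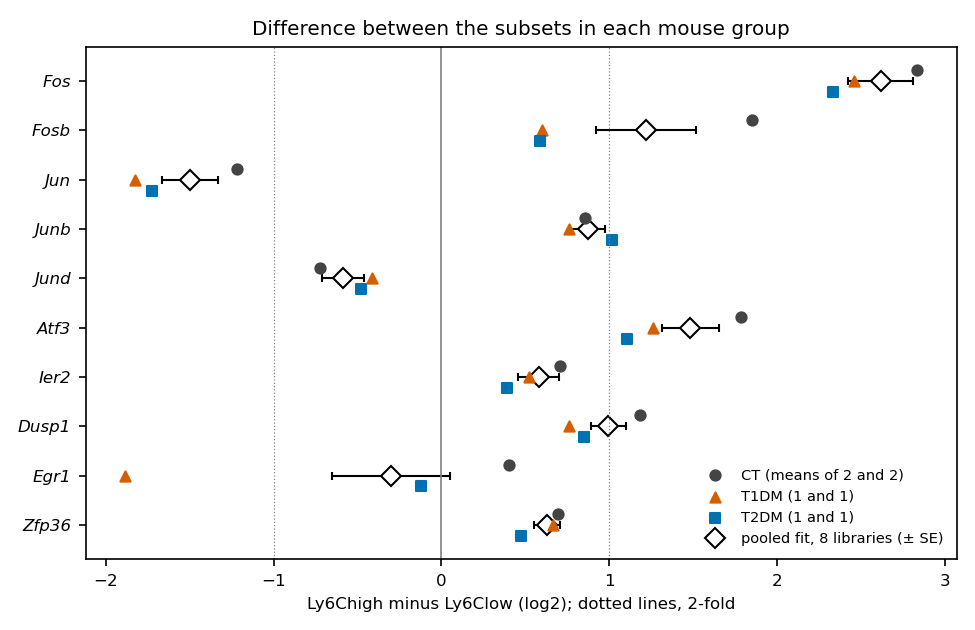
Ly6Chigh minus Ly6Clow (x axis, log2) for each gene (y axis) in CT (circles, mean of 2 libraries minus mean of 2), T1DM (triangles) and T2DM mice (squares, 1 library minus 1). Diamonds with bars are the pooled log2FC ± SE over 8 libraries. Fos lies furthest right at 2.62, Jun furthest left at -1.50, and Egr1 spreads from -1.88 in T1DM to 0.40 in CT.

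The difference of these differences was tested with both diabetic models pooled against CT. None of the 10 genes was called, as was the case for 0% of all genes (limma). An unadjusted p under 0.05 was reached by 6.58% of all genes and by 1 of 10 here, a share near that background, namely Fosb with -1.26 (SE 0.52, adjusted p = 0.744). The estimate of Egr1 was -1.41 (SE 0.70, adjusted p = 0.804), and those of the other genes lay between -0.60 for Atf3 and 0.27 for Jund. With SE of 0.16 to 0.70 per gene, differences of this size between the mouse groups could not be resolved.

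The diabetic libraries were next set against the CT libraries. Each diabetic model had 1 library a subset, so in the tests below its Ly6Chigh and Ly6Clow libraries stood in for replicates. Both came from the same mouse group, and the p-values do not measure the spread between mice. In Ly6Clow MCs 9 of 10 genes in T2DM and 8 of 10 in T1DM lay above the CT mean, and in Ly6Chigh MCs 7 of 10 in T2DM and 5 of 10 in T1DM. The median difference of the 10 genes was 0.51, 0.41, 0.24 and -0.03 in this order. For all genes it was -0.006, 0.003, 0.024 and 0.019, and the share of all genes above the CT mean was not counted. Dusp1 stood out by value. Its T1DM library lay above the CT mean by 0.86 in Ly6Chigh and by 1.28 in Ly6Clow MCs, and its T2DM library by 0.73 and 1.06, while the CT replicates of a subset differed by 0.02 and 0.15. Every diabetic library of Dusp1 lay above both CT libraries of its subset. With subset as a covariate, its log2FC was 1.07 in T1DM (SE 0.13, adjusted p = 0.0721 by limma), and 3 of the 16486 genes had a lower p-value there. It was 0.90 in T2DM (SE 0.13, adjusted p = 0.0156). Neither passed the limit of 0.01. Over the alternatives the adjusted p ran from 0.037 to 0.464 in T1DM and from 0.00901 to 0.184 in T2DM.

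Across T1DM and T2DM, 0 of 10 genes were called against CT, where 0% of all genes were called in T1DM and 0.297% in T2DM (limma). At an unadjusted p under 0.05, 2 of 10 genes passed in T1DM, Dusp1 and Zfp36, beside 3.34% of all genes. In T2DM 5 of 10 did, Fos, Junb, Ier2, Dusp1 and Zfp36, beside 8.94%. Zfp36 had a log2FC of 0.28 in T1DM (SE 0.10, adjusted p = 1.00) and 0.37 in T2DM (SE 0.10, adjusted p = 0.18). All 4 of its diabetic libraries lay above both CT libraries of their subset. Fos had a log2FC of 0.33 in T1DM (SE 0.24, adjusted p = 1.00) and 1.06 in T2DM (SE 0.24, adjusted p = 0.106), and its T2DM library was the highest in both subsets. As for Zfp36 and Dusp1, all 4 diabetic libraries of Fos lay above both CT libraries of their subset. The margin of Fos was narrow in T1DM Ly6Clow MCs, with 4.34 beside 4.25 and 3.39 in CT. The share of all genes placed like Fos, Zfp36 and Dusp1 was not counted, so their placement is only a description. Any adjustment of the values between the CT and the diabetic set was not stated in the sources used here. Over all genes, the diabetic minus CT difference (4 libraries each) had a standard deviation of 0.272 and a median size of 0.12. For T2DM minus T1DM (2 libraries each) these were 0.743 and 0.307. The part of scaling or adjustment in these spreads and in the values against CT was not tested. Dusp1, with a mean of 6.87 in CT and 7.85 in diabetic libraries, differed by 0.98, and 153 genes differed by more.

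**Figure D3:**
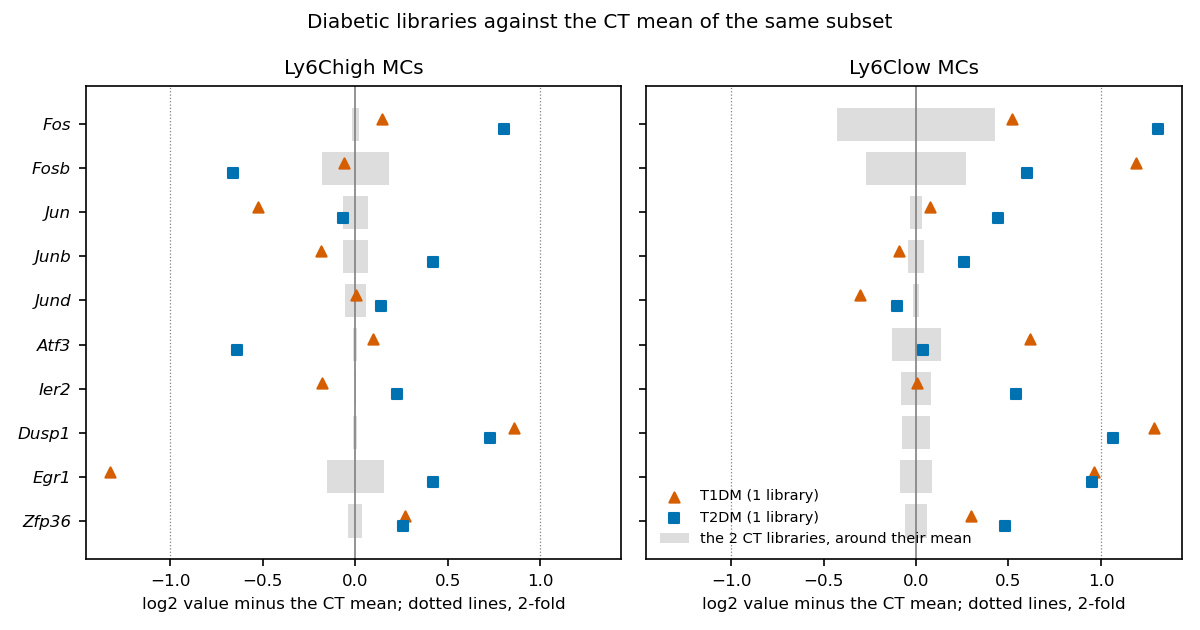
Log2 difference of each diabetic library from the average of both CT libraries (x axis) for each gene (y axis), in Ly6Chigh MCs on the left and Ly6Clow MCs on the right. Triangles are T1DM, squares T2DM, and grey bars run from the lower to the higher CT library. Fos, Dusp1 and Zfp36 lie to the right of the bars in all 4 cases, and Egr1 in T1DM lies at -1.33 in Ly6Chigh and 0.96 in Ly6Clow MCs.

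By single libraries, past 2-fold were 1 of 10 genes in T1DM Ly6Chigh MCs (Egr1, -1.33), beside 10.1% of all genes, and 0 of 10 in T2DM Ly6Chigh MCs, beside 13.8%. In T1DM Ly6Clow MCs 2 of 10 lay past 2-fold, Fosb (1.19) and Dusp1 (1.28), beside 8.81% of all genes. In T2DM Ly6Clow MCs 2 of 10 did, Fos (1.31) and Dusp1 (1.06), beside 10.8%. Without CT Ly6Clow replicate 1, 1 of 10 genes lay past 2-fold in each model, Dusp1 in T1DM (1.21) and Fos in T2DM (1.74), while Fosb was at 0.92 in T1DM and Dusp1 at 0.99 in T2DM. Without CT Ly6Clow replicate 2, Fos in T2DM was at 0.88 and no longer past 2-fold, whereas Dusp1 (1.36 in T1DM and 1.14 in T2DM) and Fosb in T1DM (1.46) were. Egr1 then went past 2-fold in both models, its diabetic libraries (T1DM 5.03, T2DM 5.02) standing against 3.98 in CT Ly6Clow replicate 1.

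Between the diabetic models, which were run on the same sequencer, 0 of 10 genes were called, beside 0.588% of all genes (limma). At an unadjusted p under 0.05, 4 of 10 passed, beside 14.3% of all genes. Fos (log2FC 0.72, SE 0.27, adjusted p = 0.274), Junb (0.48, SE 0.15, adjusted p = 0.188) and Ier2 (0.47, SE 0.17, adjusted p = 0.257) were higher and Atf3 (-0.66, SE 0.24, adjusted p = 0.257) was lower in T2DM than in T1DM. For each of these 4 genes both subsets differed the same way. The choice by p-value in this fit favours such agreement, so it is no separate check. Atf3, for example, was lower in T2DM by 0.74 in Ly6Chigh and by 0.58 in Ly6Clow MCs. Egr1 was 1.75 higher in T2DM than in T1DM Ly6Chigh MCs and equal to within 0.01 in Ly6Clow MCs.

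Other genes of the same pathways were read from lists of known members, and the shares called among all genes are those given above. Of 15 further AP-1 family genes, 14 were measured, and 5 were called, all higher in Ly6Chigh MCs. Maf had a log2FC of 2.13 (SE 0.14, adjusted p = 1.18e-05), Batf3 of 1.56 (SE 0.22) and Fosl2, which encodes a further Fos protein, of 1.30 (SE 0.11). Maf encodes a large Maf protein that takes part in macrophage differentiation, and Batf3 is needed for conventional dendritic cells. Fosl2 had values of 7.99 to 8.77 in Ly6Chigh and 6.80 to 7.44 in Ly6Clow MCs, with T2DM the highest of both subsets, as for Fos. The list median was 0.72, close to that of the 10 genes.

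Of 34 other immediate-early and rapidly induced genes, 33 were measured. Called higher in Ly6Chigh MCs were 4 and called lower were 8, and the median log2FC was -0.14. Egr3, a relative of Egr1, had the widest difference with -4.55 (SE 0.45, adjusted p = 9.91e-05), with values of -2.59 to -0.55 in Ly6Chigh and 2.15 to 3.60 in Ly6Clow MCs. Myc, a growth factor-induced transcription factor, followed with -3.64 (SE 0.18). Ptgs2, which encodes cyclooxygenase-2, had -2.27 (SE 0.49) and the orphan nuclear receptor gene Nr4a3 -2.18 (SE 0.35). Immediate-early genes thus lay on both sides. By the pooled log2FC, Jun, Jund, Egr3, Myc, Ptgs2 and Nr4a3 were higher in Ly6Clow MCs. Fos, Junb, Atf3, Dusp1, Ier2, Zfp36, Rhob, Dusp6, Nfil3 and Klf10 were higher in Ly6Chigh MCs.

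**Figure D4:**
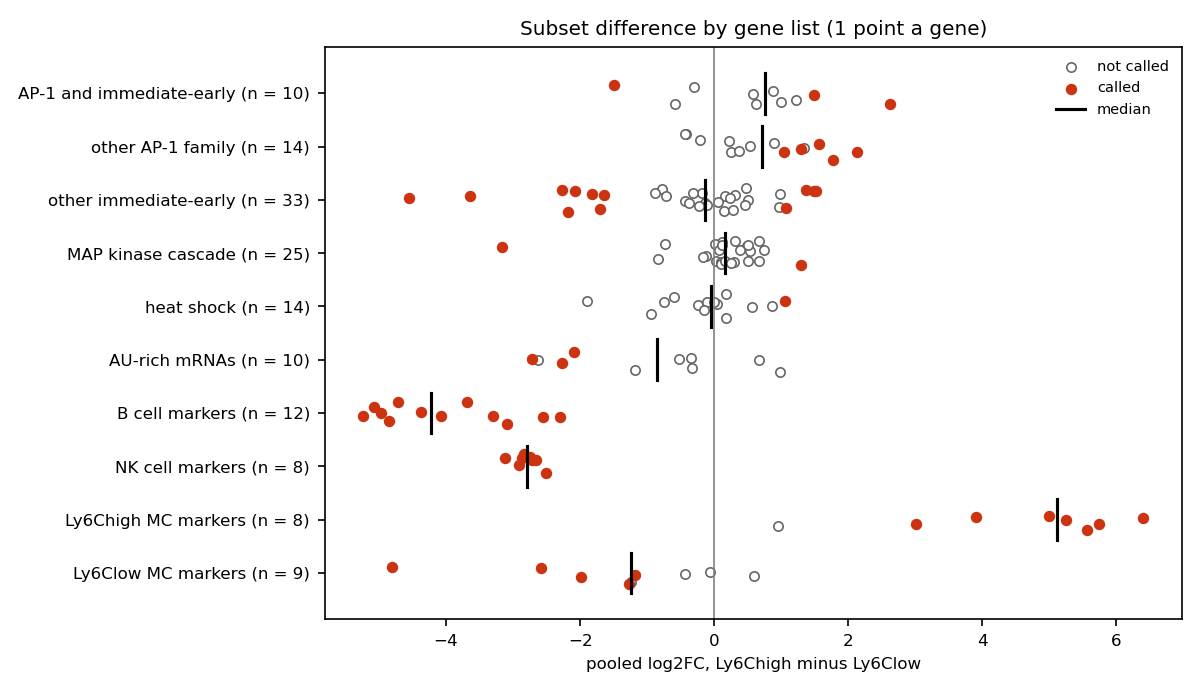
Pooled log2FC of Ly6Chigh minus Ly6Clow MCs (x axis) for the genes of each list (y axis, with the number measured). Each point is a gene, filled where called by limma, and black bars are list medians. The 10 genes have a median of 0.75, the other AP-1 family genes 0.72 and the other immediate-early genes -0.14, whereas all 12 B cell markers lie below -2.

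Of 25 genes for the MAP kinase cascade and the factors it acts on at these promoters, 25 were measured, 1 was called higher and 1 lower in Ly6Chigh MCs. Mapkapk2, which encodes the p38 substrate kinase MK2 that acts on tristetraprolin, had a log2FC of 1.30 (SE 0.09). Mapk11, which encodes p38 beta, had -3.16 (SE 0.29). Of 12 mRNAs with AU-rich elements known to bind tristetraprolin, 10 were measured, of which 8 had a log2FC below 0 and 2 above, and 3 were called, each lower in Ly6Chigh MCs. They were Ccl3 (-2.71, SE 0.50), Ptgs2 (-2.27) and Ccl4 (-2.09, SE 0.45). Ccl3 and Ccl4 encode chemokines, and the values of Ccl4 were at most 1.77 in any library. The part of Zfp36 in these differences was not tested, nor was that of NK cells, whose markers were lower in Ly6Chigh libraries too.

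Heat shock genes, which handling also raises, lay on both sides. Of 14 measured, 7 had a log2FC above 0 and 7 below, with a median of -0.05, and 1 was called, the constitutive chaperone gene Hspa8, which was higher in Ly6Chigh MCs (1.05, SE 0.09). In T2DM against CT, 4 of the 14 had a log2FC above 0 and 10 below, with a median of -0.30, and in T1DM 7 lay on either side, with a median of -0.01. The part of handling in the values of the 10 genes was not tested.

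Markers of the labelled subsets and of other blood cells were read in the same libraries. Of 8 classical MC markers 7 were called higher in Ly6Chigh MCs, and of 9 nonclassical markers 5 were called lower, but Nr4a1, Cx3cr1, Itgal and Ace were not. Cx3cr1 lay the other way, higher in Ly6Chigh MCs with 0.60 (SE 0.17, adjusted p = 0.0235 by limma), while the other 8 had a log2FC below 0. Of 12 B cell markers 12 were called lower in Ly6Chigh MCs, with a log2FC of -5.23 for Ms4a1. On the linear scale their summed value was 276 to 563 in the Ly6Chigh and 4333 to 5557 in the Ly6Clow libraries. Of 8 NK cell markers 8 were called lower in Ly6Chigh MCs, and their sum was 25.8 to 113 in Ly6Chigh and 147 to 842 in Ly6Clow libraries, lowest in T2DM in both subsets. All 10 T cell markers had a log2FC below 0, and 1 was called. Dendritic cell markers lay on both sides, with 5 of 7 measured below 0, of which 2 were called, and 2 above 0. Of 8 general monocyte markers 8 had a log2FC above 0, all 8 passed by the adjusted p-value alone and 4 were called. Their sum was 37150 to 55410 in Ly6Chigh and 8180 to 9592 in Ly6Clow libraries. Among them, named after their values were seen, Csf1r (log2FC 0.72), Cd68 (0.88), Spi1 (0.98) and Itgam (1.03) differed by about as much as Ier2, Zfp36, Junb and Dusp1. B cells and NK cells express AP-1 and immediate-early genes as well, and the part of these cells, and of the share of monocytes, in the subset differences was not tested.

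Marker sums of other cells also differed between the mouse groups, with no test. The sum of 8 platelet markers was 375 to 496 in CT, 800 and 856 in T1DM, and 215 and 253 in T2DM libraries. The sum of the 7 neutrophil markers measured was 20.3 to 29.6 in CT, 55.3 and 25.2 in T1DM and 197 and 125 in T2DM libraries, where Ly6g, Elane and Camp were not analysed. The B cell marker sum in Ly6Clow libraries was 4474 and 4498 for CT, 4333 for T1DM and 5557 for T2DM. In Ly6Chigh libraries it was 408 and 396 for CT, 563 for T1DM and 276 for T2DM. The part of platelets, neutrophils and B cells in the values of Dusp1 and Fos was not tested.

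Over the 8 libraries, 9 of the 10 genes correlated mostly along the subsets, Jun and Jund against the other 7, while the r of Egr1 with any of them was at most 0.45. Pearson's r was 0.97 for Fos with Zfp36, 0.96 for Fos with Junb and 0.94 for Fosb with Atf3. It was -0.86 for Fos with Jun and -0.98 for Atf3 with Jund. Around the mean of each subset the order changed. Dusp1 with Zfp36 had r = 0.89, Fos with Zfp36 0.87, Fosb with Atf3 0.87, and Jun with Egr1 0.80, while Fos with Jun was 0.45. Other pairs ran against each other, with -0.81 for Jund with Atf3, -0.79 for Junb with Atf3 and -0.79 for Fosb with Jund. These correlations describe 8 libraries, which share the subset, the sequencer and the scaling.

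The mean of the 10 genes, each centred on its own mean, was 0.33 and 0.24 for CT, 0.19 for T1DM and 0.45 for T2DM Ly6Chigh MCs. It was -0.57 and -0.54 for CT, -0.10 for T1DM and 0.00 for T2DM Ly6Clow MCs. The Ly6Clow libraries of diabetic mice thus lay between the CT Ly6Clow and the Ly6Chigh libraries. Among 5221 other genes averaging at least 5 on the log2 scale, the 5 whose values were most alike were Sirpb1a (r = 0.99), Lilr4b (0.97), Sumf1 (0.96), Helb (0.96) and Plxnd1 (0.96) over 8 libraries. Sirpb1a and Lilr4b encode receptors of myeloid cells. Sirpb1a, for example, had values of 6.86 and 6.68 in CT Ly6Chigh, 5.64 and 5.93 in CT Ly6Clow, 6.29 in T1DM Ly6Clow and 6.48 in T2DM Ly6Clow MCs.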

How the data were processed

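RNA of sorted blood MCs was sequenced by the authors, who used Kallisto 0.45 to quantify reads and, under R 3.6.1, tximport 1.12.3 for gene-level values. The submitters' processing notes name build mm10. The authors deposited normalised log2 values, from -4.05 to 15.64, with no counts, and the scaling, the filter on low genes and any adjustment between sequencing sets are not given in the sources used here. Depth per value is therefore unknown, and precision rests on the spread left in the libraries fitted, of which CT alone has replicates. The paper describes more libraries than the 8 used, and those were not analysed here.

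Libraries were grouped by their titles. All contrasts were computed from the deposited values by limma 3.58.1 with a variance trend (R 4.3.3) and adjusted by Benjamini-Hochberg over 16486 genes. Only the pooled fit of the subsets was tried on simulated data, which held a subset effect and no effect of mouse group. Contrasts with 1 library a side have no test. In the tests of T1DM or T2DM against CT and between the models, the subsets served as the replicates of a diabetic model. The genes and lists were chosen with earlier results of these data known. The text names the 10 genes, from each list the called genes with the largest pooled log2FC (at most 4, or the 2 largest where none was called), and the 5 genes most alike. Some genes that this rule names are not reported here. Shared 31-base sequences and positions come from GENCODE M21 (GRCm38), promoters from RefSeq (GRCm38.p6). Alternatives were a low-value filter (mean log2 value of at least 1, 12527 genes), adding 1 on the linear scale, quantile normalization, centring on the median, no variance trend, an adjusted p limit of 0.05, a replicate block, and leaving out libraries. The adjusted p alone was added as a threshold after seeing the data.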

Additional observations from a re-analysis of the deposited data

Results flagged for a closer look

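Some genes moved in opposite directions in different groups, in every library available, without a test of that difference for a single diabetic model. Egr1 was higher in Ly6Chigh than in Ly6Clow MCs of CT mice (log2 difference 0.40, each CT Ly6Chigh library above each CT Ly6Clow library) but lower in T1DM (-1.88) and T2DM mice (-0.12). Against CT, Egr1 in T1DM was -1.33 in Ly6Chigh and 0.96 in Ly6Clow MCs, with both CT libraries on the same side in each case. With both diabetic models together, the Egr1 subset difference was not shown to differ from CT (-1.41, SE 0.70, adjusted p = 0.804 by limma).

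Fosb in T2DM lay below both CT libraries in Ly6Chigh MCs (-0.66) and above both in Ly6Clow MCs (0.60). Jun in T1DM lay below both CT libraries in Ly6Chigh (-0.53) and above both in Ly6Clow MCs (0.0779). Jund in T2DM lay above both CT libraries in Ly6Chigh (0.14) and below both in Ly6Clow MCs (-0.10). The differences of Jun in Ly6Clow and of Jund in both subsets are near the gaps between CT replicates, which were 0.06 for Jun in Ly6Clow, and 0.11 and 0.03 for Jund in Ly6Chigh and Ly6Clow MCs. These differences were not tested for the single models.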

How the results depend on the processing

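In the pooled test of the subsets, Fos, Jun and Atf3 were called under each alternative, and 3 to 4 of the 10 genes were called except for 5 when libraries were centred on their median and 8 by the adjusted p alone, a threshold chosen after seeing the data. The test within CT mice was less stable, and calls over all genes moved with it. It called 1 gene as reported (3.52% of all genes), 2 after adding 1 on the linear scale (4.08%), 3 after centring (6.01%), 4 with the low-value filter (8.69%) and 5 at an adjusted p limit of 0.05 (11.7%). Quantile normalization also called 1 (4.2%), Atf3 in place of Dusp1. Without the variance trend 0 were called. Leaving out any 1 CT library gave 0 (range 0 to 0), with fewer libraries fitted. With the replicate number as a block 0 were called in CT and 3 in the pooled test. In each of these CT fits with 0 calls among the 10 genes, 0 of all genes were called too, so these counts are set by the fit. The numbers do not pair the CT libraries, since the replicate differences of the subsets had r = 0.01 over genes. No alternative called any of the 10 genes in T1DM or T2DM against CT, between the models, or in the difference of differences. Past 2-fold in Ly6Clow MCs were 1 to 3 genes in T1DM and 1 to 2 in T2DM when either CT library was left out. Directions turned for Egr1 in the pooled test without the T1DM libraries (0.23), and under quantile normalization in T2DM against CT for Fosb (0.0167) and Jund (-0.0183). They also turned when 1 CT library was left out, where the log2FC ran from -0.359 to 0.01996 for Egr1 in T1DM, from -0.264 to 0.167 for Fosb and from -0.0320 to 0.0520 for Jund in T2DM, and from -0.0330 to 0.104 for Junb in the difference of differences. None of these was called in any fit, and the cause was not tested. Of 650 values of single genes with a test, 611 kept their direction and their side of the threshold, 23 passed it newly, 7 no longer passed and 9 turned. The depth behind the values is unknown, and 1 library a subset limits each diabetic model.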
